A study of Mus musculus with 4 samples.

Results

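The skeletal myosin heavy and light chain genes were followed in a map of H3S10ph, histone 3 phosphorylated at serine 10, made by ChIP-seq of mouse gastrocnemius muscle. The members were 10 genes taken by name out of 21938 protein-coding genes of the autosomes and sex chromosomes. They are the adult fast genes *Myh4*, *Myh1*, *Myh2*, *Myl1* and *Mylpf*, the developmental genes *Myh3* and *Myh8*, the slow genes *Myh7* and *Myl3*, and the extraocular gene *Myh13*. Each member was given a window that runs from the annotated start of the gene to its end with 5 kb added on each side, and a peak belonged to the member when it overlapped the window by at least 1 bp. The muscles came from male C57BL/6 mice of 5 months, all anaesthetised with xylazine and Zoletil. There were 2 samples of stimulated muscles and 2 of unstimulated contralateral muscles, with the gastrocnemius muscles of 6 mice pooled in each sample. Stimulated muscles performed 50 eccentric contractions, with a tetanus of 600 ms at 100 Hz every 30 s, and were collected straight afterwards. The whole muscle was used, so nuclei of fibres and of other cells were sampled together, and more marked nuclei and more mark per nucleus cannot be told apart.

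For each sample the authors deposited 1 list of broad peaks, with a fold enrichment over the background and a −log10 p per peak, and no read counts. The lists of unstimulated muscles held 9094 and 32740 peaks and those of stimulated muscles 10901 and 40683, in the order of replicates 1 and 2. Peaks covered 0.194% and 0.721% of all gene windows in unstimulated and 0.251% and 1.26% in stimulated muscles, so a longer list finds a peak at a given gene more often. Unstimulated replicate 1 stood apart by 522 peaks on chromosome X, against 16 to 19 in the other lists, although the labels give male mice. None of the members lies on chromosome X, and values without this list are given where it changes a result. No 2 lists had a peak with the same start and end.

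Skeletal muscle myosin consists of 2 heavy chains, which hold the motor that pulls on actin, and of essential and regulatory light chains on their necks. Mouse fibres differ by the heavy chain they express, and the gastrocnemius is a fast muscle built mostly of fibres with the type 2B chain of *Myh4* and the type 2X chain of *Myh1*. The fast and developmental heavy chain genes lie side by side in a cluster on chromosome 11, in the order *Myh3*, *Myh2*, *Myh1*, *Myh4*, *Myh8* and *Myh13*, all on the plus strand, and only some of them are used in a given fibre and at a given age. H3S10ph is known for condensed chromosomes in mitosis and, in cells that do not divide, for genes switched on quickly by kinase signalling.

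*Myh4* was the single member with a peak in all 4 lists. It lies on chromosome 11 of mm10 from 67238029 to 67260446 and has 39 exons in the GENCODE annotation, whose numbering is used. Stretches of its sequence are shown because the comparison turns on where peaks began and ended along the gene. The first, at chr11:67250974-67251190, is the single stretch of 217 bp that lay under a peak in all 4 lists, from the last 34 bases of exon 21 into the next intron. The second, at chr11:67240786-67241068, is 283 bp over exons 2 and 3 that peaks of both stimulated lists covered and no unstimulated peak reached, with 186 exonic bases, all coding. It is the shortest of 3 such stretches, beside 1204 and 330 bp. The peak of stimulated replicate 2 over it was weak, with a −log10 p of 2.12 and a fold enrichment of 2.06. With only peaks of −log10 p 2.5 or more, that list first covered *Myh4* 4.64 kb after its start, so the stretch was no longer shared. The second sequence is followed by the stretch of *Myh1* that matched it best, at chr11:67202044-67202322, which lay under no peak of any list. The last is the 250 bp before the RefSeq start of *Myh4*, at chr11:67237562-67237811, where no list had a peak. All are on the plus strand of GRCm38 (mm10). Capitals mark exons in the first 3 sequences and, in the last, matches of TATAAA on either strand and the CArG box.
Myh4, all lists: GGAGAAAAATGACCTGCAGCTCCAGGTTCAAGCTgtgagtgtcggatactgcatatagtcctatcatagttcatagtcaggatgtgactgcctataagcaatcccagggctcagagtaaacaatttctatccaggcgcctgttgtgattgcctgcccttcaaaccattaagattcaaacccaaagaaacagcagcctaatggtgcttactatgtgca
Myh4, stimulated lists: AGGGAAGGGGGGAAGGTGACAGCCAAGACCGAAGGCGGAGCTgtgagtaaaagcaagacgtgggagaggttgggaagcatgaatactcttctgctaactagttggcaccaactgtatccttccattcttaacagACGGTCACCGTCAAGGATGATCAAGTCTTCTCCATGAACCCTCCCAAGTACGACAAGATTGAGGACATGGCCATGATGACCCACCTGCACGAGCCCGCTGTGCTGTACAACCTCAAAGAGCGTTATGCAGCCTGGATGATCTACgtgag
Myh1, matching stretch: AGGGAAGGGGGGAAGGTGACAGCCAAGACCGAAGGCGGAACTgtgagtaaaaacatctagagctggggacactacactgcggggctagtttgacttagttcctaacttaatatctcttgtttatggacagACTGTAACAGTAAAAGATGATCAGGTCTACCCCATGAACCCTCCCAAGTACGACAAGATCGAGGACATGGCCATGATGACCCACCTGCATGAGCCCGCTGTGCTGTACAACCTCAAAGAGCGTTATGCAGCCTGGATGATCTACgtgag
Myh4, before the start: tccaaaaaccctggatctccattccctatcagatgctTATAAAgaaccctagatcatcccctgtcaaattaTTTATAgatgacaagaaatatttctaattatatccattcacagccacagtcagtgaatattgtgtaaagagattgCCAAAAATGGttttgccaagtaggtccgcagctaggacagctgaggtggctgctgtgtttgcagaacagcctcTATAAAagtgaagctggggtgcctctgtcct

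The sequence over exons 2 and 3 was 81.0% identical to that of *Myh1* over 290 aligned positions. Parts of this sequence also matched *Myh8* (91.7% over 157 positions), *Myh13* (93.2% over 132) and *Myh3* (89.8% over 118). Matches to *Myh2* (88.5% over 183) and *Myh7* (83.0% over 153) were found as well. The stretch under all lists is mostly intronic, and its matches to *Myh1* (88.9%) and *Myh8* (92.5%) ran over only 45 and 40 positions. Since the authors removed reads that map to several places, the share of 31-base words found more than once in the genome was counted for each member. It was 8.09% of the *Myh4* gene body, and 10.2% in *Myh1*, 10.3% in *Myh2*, 10.2% in *Myh8* and 6.82% in *Myh3*, 2.49% in *Myh13* and 13.4% in *Myh7*. The part of repeated sequence in the differences between members was not tested.

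Before the start of *Myh4*, a CArG box, the form of sequence that serum response factor binds, was found 104 bp upstream of the RefSeq start, as CCAAAAATGG. A CArG box was present in 1.47% of 32851 mouse promoters of the same length, and in the same stretch of *Myl3* but of no other member. The letters TATAAA were found 3 times on either strand, the nearest 31 bp upstream, and occur in 12.4% of promoters. No MEF2 site was found (0.508% of promoters), and CANNTG, the E-box of myogenic factors, was found 2 times without overlap with the other motifs (66.2% of promoters). None of the 10 members had a peak of any list over its RefSeq start, taken as 250 bp before to 50 bp after, and 4.14% of all RefSeq starts had one in at least 1 list.

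The first question was which myosin genes had a H3S10ph peak in resting and in contracted muscle. In unstimulated muscles 1 member had a peak in replicate 1 and 6 in replicate 2, and in stimulated muscles 2 and 5 did. Of all protein-coding genes 14.0% and 39.3% had a peak in the unstimulated and 19.9% and 52.5% in the stimulated lists. The share of marked members was near this background except in unstimulated replicate 2, where it was 60%. In that list a single peak was counted for both *Myh1* and *Myh2*. The background genes were not matched to the members for length. *Myh4* alone had a peak in both stimulated lists, as did 15.3% of all genes, and it alone had one in both unstimulated lists, as did 9.11%. A peak in all 4 lists was found at 4.57% of all genes. *Mylpf* and *Myh7* had no peak in any list, as was the case for 31.1% of all genes. What set *Myh4* apart was the length under peaks.

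At *Myh4*, the gene of the type 2B heavy chain, 3 peaks in unstimulated replicate 1 covered 7.38% of the window, and 4 peaks in unstimulated replicate 2 covered 34.3%. In stimulated replicate 1, 5 peaks covered 22.3% of it, and in stimulated replicate 2, 7 peaks covered 47.8%. Each stimulated list lay above the unstimulated list of the same number, but stimulated replicate 1 lay below unstimulated replicate 2, so the groups overlapped. Over all gene windows the lists had the same order, with 0.194% and 0.721% covered in unstimulated and 0.251% and 1.26% in stimulated muscles. By covered share *Myh4* ranked 47 and 2 of 21938 genes in the unstimulated lists and 8 and 2 in the stimulated lists. Among the 10159 genes of at least 20 kb, a limit chosen after its values were seen, it ranked 7 and 1 in unstimulated and 1 and 1 in stimulated muscles. The mean covered share was 35.1% ± 18.0 (SD, n = 2) in stimulated and 20.8% ± 19 (SD, n = 2) in unstimulated muscles, a ratio of 1.69. In a two-sided exact permutation test p was 0.667, and with 2 samples against 2 the smallest p it allows is 0.333. The difference of 14.3 percentage points was smaller than the spread between the pools of a condition. Between lists of the same number it was 15.0 points in replicate 1 and 13.6 in replicate 2, although the labels do not say that equal numbers share mice. It fell to 0.828 points without unstimulated replicate 1 and to 1.51 without stimulated replicate 2, and was 27.7 without unstimulated replicate 2 and 27.0 without stimulated replicate 1.

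**Figure D1:**
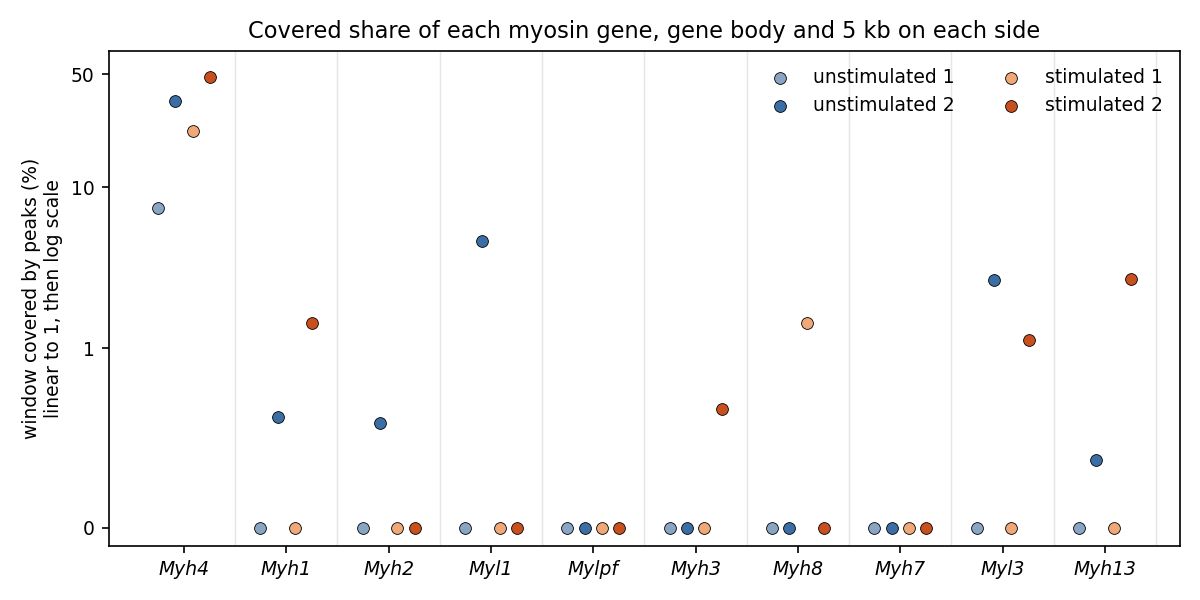
The plot gives the share of each member's window (gene body and 5 kb on each side) under peaks, in percent on an axis that is linear up to 1 and logarithmic above, with 1 point per list and the shade giving the replicate. *Myh4* lies between 7.38% and 47.8% in the 4 lists, and every other member is at 4.61% or below.

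The peaks of *Myh4* were wide. The widest was 8870 bp in stimulated replicate 2, where it was the widest of all 40683 peaks, and 7524 bp in unstimulated replicate 2, where it was number 3 of 32740. In stimulated replicate 1 the widest was 4341 bp, number 12 of 10901, and in unstimulated replicate 1 it was 1176 bp, number 328 of 9094. The median peak of the lists was 360 to 457 bp wide. Their fold enrichment was not high to the same degree. The best *Myh4* peak by fold enrichment (column 7 of the lists) had rank 475 in unstimulated replicate 1 and rank 274 in replicate 2, which is 5.22% and 0.837% of the way down the list. In the stimulated lists it had rank 1413 and 826, or 13.0% and 2.03% of the way down. The fold enrichments of these best peaks were 2.54 and 2.56 in unstimulated and 2.48 and 2.49 in stimulated muscles. Ranks of the other *Myh4* peaks reached down to 61.7% of the list. Of the 33 peaks at members 5 had a −log10 q above 0, and the highest was 0.0569, so none of them passes a threshold on q by itself. The methods give a p cutoff of 0.001, a −log10 p of 3, and the 6 member peaks that reached it were all at *Myh4*.

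**Figure D2:**
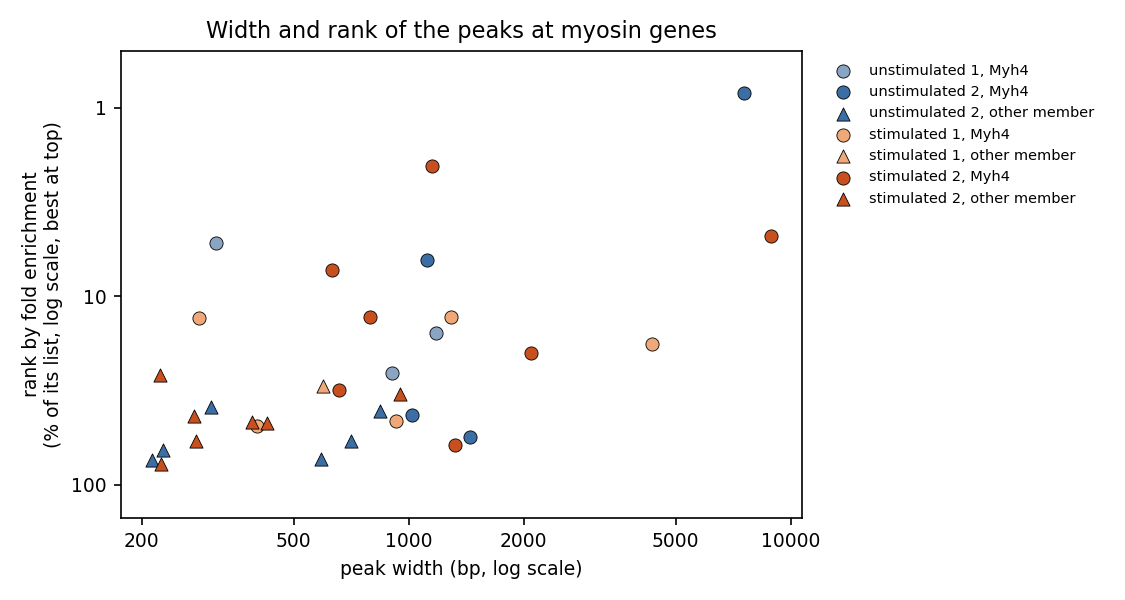
Each point is a peak at a myosin gene, with its width in bp (log axis) against its rank by fold enrichment as a percentage of its own list (log axis, best at the top). Circles are *Myh4* and triangles the other members, whose 14 peaks are at most 947 bp wide and rank no better than 26.4%.

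Along the gene, peaks lay over the body of *Myh4* and beyond its 3′ end, and were missing at its start. The gene body was divided into 10 equal parts, counted from the start, and part 1 had no peak in any list. Before the start, stimulated replicate 2 alone had a peak, of 657 bp, which also overlaps the antisense gene Myhas. Part 8 was covered completely in 3 lists, unstimulated replicate 2 and both stimulated ones, and not at all in unstimulated replicate 1. The centre of the covered bases lay 17.2 kb and 16.4 kb from the start in unstimulated muscles and 14.7 kb and 13.2 kb from it in stimulated muscles. The first peak inside the gene began 10.2 kb and 7.93 kb after the start in the unstimulated lists and 2.76 kb and 2.35 kb after it in the stimulated lists, so that here the groups did not overlap. Of the 896 genes with a peak inside the gene in all 4 lists, 17.1% were separated in the same direction. With a −log10 p of 3 or more, stimulated replicate 2 had no peak inside *Myh4*. In parts 1 to 5, a division made after the peaks had been seen, 8.06% and 9.08% of the bases were covered in unstimulated and 14.0% and 42.3% in stimulated muscles. Both stimulated lists were higher, as they were for 3.02% of all genes over the same part of the gene. In parts 6 to 10 the shares were 2.79% and 77.1% in unstimulated and 50.6% and 79.9% in stimulated muscles. Here the groups overlapped, and 2.85% of all genes had both stimulated lists higher. A gene needed peaks in both stimulated lists to be counted in either share, and 15.3% of all genes had them in their windows. Shares among such genes alone were not computed. The difference over parts 1 to 5 depended on weak peaks. With only peaks of −log10 p 2.5 or more the shares were 8.06% and 0% against 14.0% and 11.9%, and at 3 stimulated replicate 1 alone had a peak there.

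**Figure D3:**
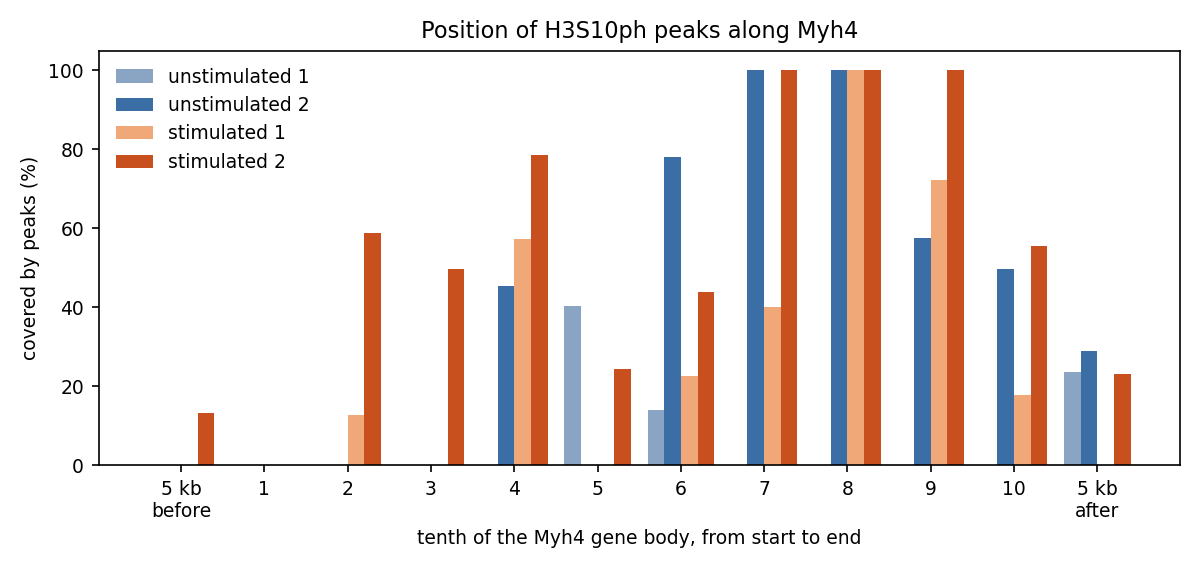
Bars give the share of each of 10 equal parts of the *Myh4* gene body, and of the 5 kb on each side, that lay under peaks, in percent for each of the 4 lists. The start of the gene is bare in all lists, parts 2 and 3 are covered in stimulated lists only, and parts 7 to 9 are covered in every list but unstimulated replicate 1.

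How far the lists covered the same bases of *Myh4* differed from pair to pair, and 217 bp lay under peaks in all 4. All bases under peaks in stimulated replicate 1 were also under peaks in stimulated replicate 2 (100% of the former, 46.7% of the latter). The unstimulated lists shared 1460 bp, which is 61.0% of the covered bases of replicate 1 and 13.1% of those of replicate 2. Across the conditions, unstimulated replicate 2 shared 9273 bp with stimulated replicate 2 (83.5% and 59.8%) and 5423 bp with stimulated replicate 1 (48.8% and 74.9%). Unstimulated replicate 1 shared 217 bp with stimulated replicate 1 (9.07% and 3.0%). Of the 32418 bp of the window, 14579 bp lay under no peak, and 6144 bp lay under peaks in exactly 3 lists, mostly in a stretch of 4011 bp that runs from 15.2 to 19.2 kb after the start. Both stimulated lists and no unstimulated list covered 1817 bp, in 3 stretches that begin 2.76 kb, 6.72 kb and 19.2 kb after the start. The mirrored count was 305 bp, in 1 stretch beyond the 3′ end of the gene. In the 5 kb after that end, 23.5% and 29.0% of the bases were covered in unstimulated and 0% and 23.1% in stimulated muscles.

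**Figure D4:**
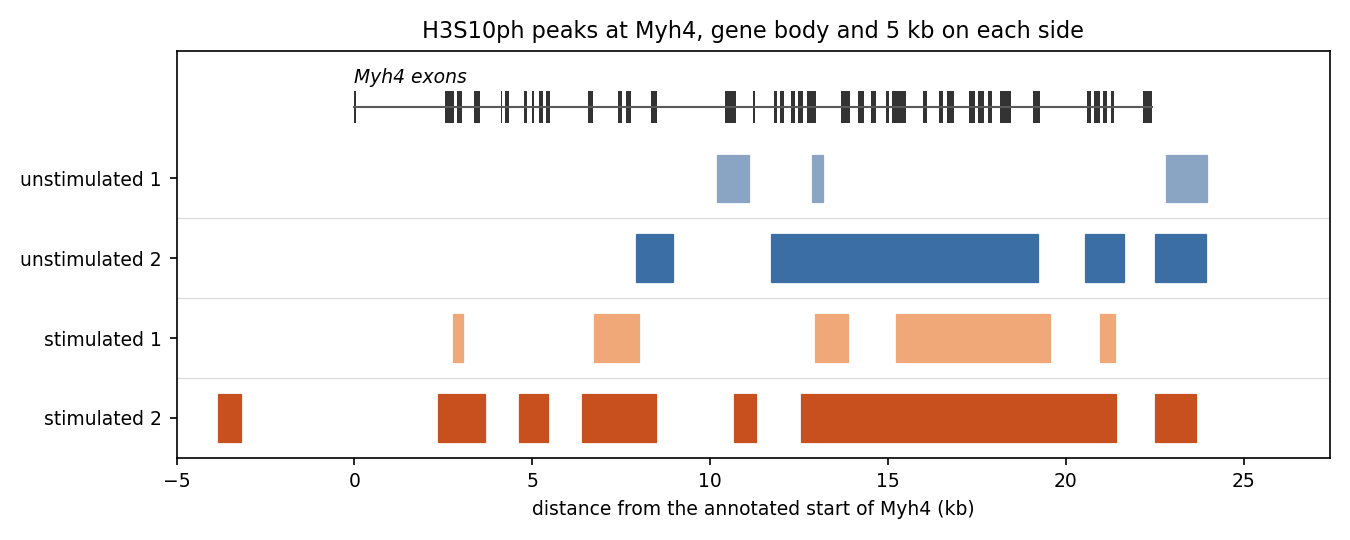
The map draws the peaks of each list as boxes against the distance from the annotated start of *Myh4* in kb, below the exons of the gene. Inside the gene, stimulated lists have peaks from 2.76 kb and 2.35 kb on, and unstimulated lists from 10.2 kb and 7.93 kb on. Stimulated replicate 2 also has a peak before the start.

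Exons of *Myh4* were covered more than its introns in each list. The shares of exonic and intronic bases under peaks were 7.31% and 4.74% in unstimulated replicate 1, and 63.7% and 35.5% in unstimulated replicate 2. In stimulated muscles they were 43.5% and 28.2% in replicate 1 and 80.0% and 54.2% in replicate 2. Exons make up 35.8% of the bases in parts 6 to 10 and 17.8% of those in parts 1 to 5, so exon content and position move together along the gene. GC content was 44.7% in the bases covered by at least 1 list and 40.3% in the others, and 10.5% and 2.35% of the 31-base words in them occur more than once in the genome. The part of base composition in the position of the peaks was not tested.

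The neighbours of *Myh4* in the cluster were nearly bare. *Myh1*, the type 2X gene that ends 13.5 kb before *Myh4* begins, had no peak in unstimulated replicate 1 and stimulated replicate 1. In unstimulated replicate 2 a peak of 213 bp lay before its start, in the 5 kb flank, and over the antisense gene 9430073C21Rik. This same peak is the only one in the window of *Myh2*, the type 2A gene, and was counted for both. In stimulated replicate 2 *Myh1* had peaks of 275 bp and 224 bp, and the latter also overlaps the antisense gene Myhas. The 213 bp and 499 bp under peaks amount to 0.617% and 1.45% of the window of *Myh1* in replicate 2 of unstimulated and stimulated muscles. Over the whole cluster of 303 kb, the *Myh4* window held 100% and 92.2% of the covered bases in the unstimulated and 89.3% and 86.9% in the stimulated lists, although it makes up 10.7% of the length. Of the rest of the cluster, 0% and 0.345% were covered in unstimulated and 0.320% and 0.863% in stimulated muscles, against the 0.194%, 0.721%, 0.251% and 1.26% of all gene windows given above. In the 68.7 kb between *Myh3* and *Myh2* there were 2 peaks in unstimulated replicate 2 and 1 in stimulated replicate 1, at different places. The one place between the genes where peaks of at least 2 lists lay together was the flank after the end of *Myh4*, where unstimulated replicates 1 and 2 and stimulated replicate 2 had peaks of 1176, 1449 and 1153 bp.

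**Figure D5:**
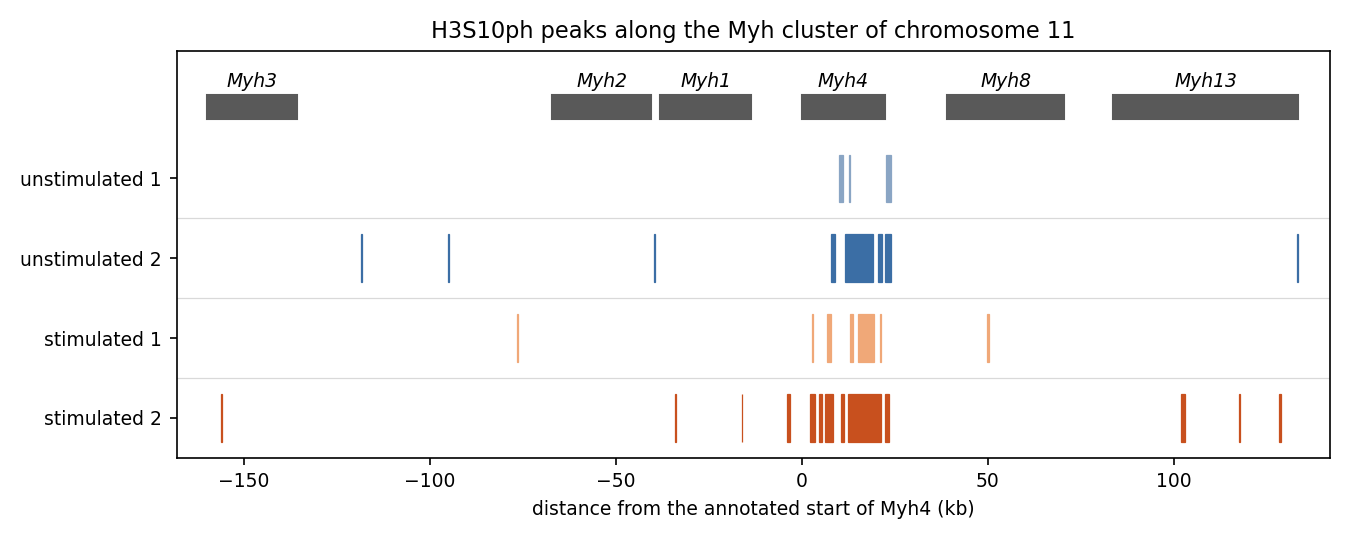
The map shows the peaks of the 4 lists along the *Myh* cluster, as boxes against the distance in kb from the annotated start of *Myh4*, with the genes on top. Peaks crowd over *Myh4* in each list, and the rest of the cluster holds single narrow peaks.

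The developmental heavy chains, of which *Myh3* is embryonic and *Myh8* perinatal, had no peak in either unstimulated list. *Myh8* had a single peak of 596 bp in stimulated replicate 1, 10.8 kb after its start, with rank 3259, and *Myh3* had one of 225 bp in stimulated replicate 2, 3.8 kb after its start, with rank 31585. These peaks covered 1.44% and 0.662% of their windows, and neither was found in the other stimulated list. *Myh13*, the heavy chain of eye muscles, had 1 peak of 228 bp in unstimulated replicate 2 and 3 peaks of 277 to 947 bp in stimulated replicate 2, or 0.380% and 2.69% of its window. It had none in replicate 1 of either condition.

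Of the slow genes, *Myh7*, the heavy chain of type 1 fibres on chromosome 14, had no peak. *Myl3*, a slow essential light chain on chromosome 9, had peaks in the replicate 2 lists only. In unstimulated muscle they were 706 bp and 303 bp long, the former at the far 5′ end of the GENCODE gene model and over *Pth1r*, and in stimulated muscle 426 bp long. The RefSeq model of *Myl3* starts 21817 bp further on, so that the peak over *Pth1r* falls outside it. The covered shares of *Myl3* were 2.66% in unstimulated and 1.12% in stimulated replicate 2. The mean difference between stimulated and unstimulated muscles was -0.768 points with the GENCODE model and 0.381 points with the RefSeq model, so its direction depended on the model.

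The fast light chains did not follow *Myh4*. *Mylpf*, the fast regulatory light chain gene on chromosome 7 with a body of 5409 bp, had no peak in any list. *Myl1*, the fast essential light chain gene on chromosome 1, had 2 peaks of 843 bp and 591 bp in unstimulated replicate 2, which covered 4.61% of its window, and none in the other 3 lists. For the 9 members other than *Myh4*, the same exact permutation test on the covered share gave p = 1. No member was covered more in both stimulated than in both unstimulated lists, which was the case for 6.73% of all genes, and none was covered less in both (1.71% of all genes).

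Adult fast genes were compared with developmental and slow genes within each list. The windows of the 5 adult fast genes were covered to 1.68% and 8.95% in unstimulated and to 5.08% and 11.2% in stimulated muscles. Those of the 4 developmental and slow genes were covered to 0% and 0.685% in unstimulated and to 0.404% and 0.442% in stimulated muscles. The difference was 4.97 ± 4.66 percentage points (SD, n = 2) in unstimulated and 7.73 ± 4.32 (SD, n = 2) in stimulated muscles, and adult fast genes were covered more in 4 of 4 lists. The unstimulated difference was 8.27 points without unstimulated replicate 1 and 1.68 without replicate 2. The stimulated one was 10.8 without stimulated replicate 1 and 4.68 without replicate 2. Which condition had the larger difference thus depended on the list left out. The difference between the classes rested on *Myh4*. Without it, the 4 remaining fast genes were covered to 0% and 1.5% in unstimulated and to 0% and 0.453% in stimulated muscles, and the difference was 0.406 points in unstimulated and -0.196 points in stimulated muscles. The members chosen for the comparison fix its direction, and no test was made of it.

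Over the windows of all 10 members, 0.684% and 4.00% of the bases were covered in unstimulated and 2.24% and 5.22% in stimulated muscles. The means were 2.34% ± 2.34 (SD, n = 2) and 3.73% ± 2.11 (SD, n = 2), a ratio of 1.59, and the groups overlapped. All gene windows were covered to 0.194% and 0.721% in unstimulated and to 0.251% and 1.26% in stimulated muscles. They had the same order of lists, so the ratio does not show a rise particular to the members. Taking the lists with the same replicate number as pairs, the ratio for the members was 3.27 in replicate 1 and 1.31 in replicate 2. The ratio was 0.933 without unstimulated replicate 1, 5.46 without unstimulated replicate 2 and 0.957 without stimulated replicate 2, and 0.901 with peaks of −log10 p 3 or more, where 23.2% of the *Myh4* window was still covered in unstimulated replicate 2 and 3.56% in stimulated replicate 2. For comparison, the 9094 best peaks of each list by −log10 p covered 7.38% and 26.6% of the *Myh4* window in unstimulated and 22.3% and 41.7% in stimulated muscles.

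Other genes of the thick filament were taken from a list of 18. A peak was found at 3 and 13 of them in unstimulated and at 8 and 16 in stimulated muscles, beside 14.0%, 39.3%, 19.9% and 52.5% of all genes in the same order. There were 7 of 18 with a peak in both stimulated lists (15.3% of all genes) and 3 of 18 with one in both unstimulated lists (9.11%). The former included *Ttn* (titin), *Mylk4* and *Mylk2* (kinases of myosin light chains), *Mybpc1* and *Mybph* (myosin binding proteins) and *Myl4* (the embryonic and atrial light chain). The latter were *Ttn*, *Mylk4* and *Smyd1*, a methyltransferase of muscle. *Ttn*, a far longer gene, came closest to *Myh4*, with 1.39% and 14.5% of its window covered in unstimulated and 10.2% and 24.1% in stimulated muscles. The order of its lists was the same as at *Myh4*. It was also the order of the lists over all gene windows, so it is not particular to these genes. *Mylk4* had 0.374% and 9.86% against 4.05% and 9.15%. *Mybph*, *Mylk2* and *Myl4* were bare in unstimulated muscles, and 5.07% and 11.7%, 4.48% and 5.36%, and 0.425% and 1.01% of their windows were covered in the stimulated lists. These 3 of 18 genes were covered more in both stimulated than in both unstimulated lists, beside 6.73% of all genes, and none was covered less in both. *Myh6*, the cardiac heavy chain gene, had peaks in stimulated replicate 1 only.

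By the sum over the 4 lists of the absolute difference in covered share, the protein-coding genes most like *Myh4* included Gm10382, *Plin4*, 3110070M22Rik and *Fos*. Their sums were 23.5, 33.2, 44.0 and 46.5 percentage points, and a small sum does not require the same order of the lists. Gm10382 was covered to 0% and 22.5% in unstimulated and to 25.0% and 46.1% in stimulated muscles. *Fos* was covered to 0% and 10.7% in unstimulated and to 24.4% and 34.3% in stimulated muscles. At both the stimulated lists were higher, as for 6.73% of all genes, whereas at *Myh4*, *Plin4* and 3110070M22Rik the groups overlapped. These 4 genes are shorter than *Myh4*, with 1123 to 9213 bp.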

How the data were processed

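H3S10ph ChIP-seq was analysed from 2 stimulated and 2 unstimulated samples. Per the methods and the submitters' processing notes, the authors mapped reads to mm10 with BWA, kept uniquely mapped reads (bamtools 2.4.0), sampled replicates down to the one with fewest reads and called broad peaks in each sample against input DNA (MACS2 2.1.1). The deposited lists give for each peak a fold enrichment (a linear ratio), the −log10 of p and of q, and a score that was not used. The weakest peaks have a −log10 p of 2.00 to 2.04. They hold no counts, so depth is unknown and no counting interval can be given. Absence of a peak does not show absence of the mark.

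Overlaps, covered lengths and ranks were computed with Python 3.11.15 (numpy 2.4.6, pandas 2.3.3, scipy 1.17.1) and tested on simulated data, on genes of GENCODE M21. Figures were drawn with matplotlib 3.10.9. Between lists, fold enrichment was compared only by its rank within each list. The fold enrichments that are printed belong to their own list. Sequence came from GRCm38.p6 (RefSeq), whose chromosomes are those of mm10, and was matched with blastn 2.17.0 at an E value of 1e-05. RefSeq promoters were found for 10 of 10 members. All 10 members are named, with the listed thick filament genes that had a peak in both lists of a condition, the 5 genes most like the most covered member, and stretches of the cluster with peaks of at least 2 lists at the same place. Of the genes these rules name, 2 are not reported here. The members and gene lists were chosen with earlier results of these data known. Single genes were compared by exact permutation tests. Sums over members were not tested.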

Additional observations from a re-analysis of the deposited data

How the results depend on the processing

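The covered share of the *Myh4* window was higher in stimulated than in unstimulated muscles in 12 of 13 alternatives, by 0.828 to 27.7 percentage points, the lowest without unstimulated replicate 1 and the next, 1.51, without stimulated replicate 2, and lower by 1.19 points in the other, which kept peaks of −log10 p 3 or more. No alternative could pass a test with 2 samples per condition. The ratio of the covered share of all members was 0.901 with these stronger peaks and ranged from 0.933 to 5.46 when 1 list was left out. With the replicate numbers as a replicate block it was 2.07. The study took contralateral muscles of the same mice, but the labels do not say that equal numbers share mice, and with 2 numbers the pairing cannot be checked. With peaks of −log10 p 3 or more, the difference between adult fast and developmental and slow genes was 2.75 points in unstimulated and 2.48 in stimulated muscles. With all peaks but without *Myh4*, it was 0.406 points in unstimulated and -0.196 points in stimulated muscles. The number of members with a peak in both stimulated lists was 2 with flanks of 10000 bp, since *Myh2* was added through peaks at different places. In stimulated replicate 1 its peak lay 9121 bp before the gene, and in replicate 2 it lay 6561 bp after it, inside *Myh1*. With 1 stimulated list left out, only the other was counted, with 5 members in replicate 2 and 2 in replicate 1 (52.5% and 19.9% of all genes). With 1 unstimulated list left out, the counts were 6 in replicate 2 and 1 in replicate 1 (39.3% and 14.0% of all genes). The best rank of a member peak, averaged over the lists, moved from 5.26% of the list to 11.3% and 51.4% with limits of 2.5 and 3 on −log10 p, where the lists are shorter by construction, and to 31.7% without *Myh4*. The cause of the other changes was not tested. RefSeq gene models, the removal of *Myh4*, lists of equal length by fold enrichment, the division of *Myh4* into parts and the first peak under limits on −log10 p were chosen after seeing the data.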
